A study of Mus musculus with 4 samples.

Results

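The genes described here are the solute carriers of the postnatal mouse lens other than the mitochondrial Slc25 carriers, in lenses that lack Tdrd7 and in control lenses. Tdrd7 encodes a granule protein with Tudor domains, and its loss leads to congenital cataract. Every row of the deposited table whose symbol was Slc followed by a digit was taken, leaving out the 34 Slc25 rows and 4 well-known glucose, lactate and cystine transporter rows by name, which gave 146 genes of the 10790 in the table. Values are scaled reads, which are read counts divided by 1 factor per library, so that 1 scaled read stood for 35.5 to 42.3 reads.

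RNA came from whole lenses at postnatal day 4, from mice labelled Tdrd7 -/- (called Tdrd7 null here) and from wild type control mice. Each library was a pool of 15 lenses, and there were 2 libraries per genotype. The genotypes shared stage and tissue, and strain, sex and the kind of null allele are not stated in the sources used. Whole lens RNA mixes the epithelial layer with the fiber mass, so fewer cells of a type and less RNA per cell cannot be told apart.

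Solute carriers are membrane proteins that move ions, metals, amino acids, sugars, nucleotide sugars, vitamins and lipids across the cell surface and across the membranes of organelles. The lens has no blood supply, and its cells take up nutrients and antioxidants from the surrounding humors and keep their ion content, volume and low calcium by such transport. Mutation of SLC16A12, a creatine and monocarboxylate family carrier, causes cataract in humans, and loss of Slc7a8, a neutral amino acid exchanger, has been tied to cataract in mice.

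Tdrd7 had 165 and 96.6 scaled reads in the Tdrd7 null libraries, against 1188 and 972 in the control libraries. The targeted gene therefore went with the label in all 4. Depth ran from 33920522 to 42767535 reads in the listed genes. The tissue label was checked on the crystallin, membrane and beaded filament genes that define lens fibers. Of the 10 rows of these 9 symbols limma called 1, a row of the membrane protein gene Lim2, lower in Tdrd7 null lenses (log2 fold change -0.25). Together they took 28.1% and 27.2% of scaled reads in the Tdrd7 null libraries and 28.3% and 28.5% in the control libraries. All 4 epithelial markers were measured, and limma called Gja1 higher (log2 fold change 0.33) and Foxe3 lower (-0.43) in Tdrd7 null lenses. Their part in the results below was not tested. Of 8 endothelial markers 6 were measured, and they summed to 13.7 and 19.2 scaled reads in the Tdrd7 null libraries and to 18.4 and 11.2 in the control libraries, so the groups overlapped. Of 7 pigment cell markers Tyrp1 alone was measured, at no more than 1.78 scaled reads, and no macrophage, erythroid or retinal marker had a measured value. Every listed gene reached at least 1.017 scaled reads in some library, so a gene that is not listed may be scarce rather than absent.

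The clearest differences were lower levels of Slc35d1 and Slc8a1 in Tdrd7 null lenses. Slc35d1 carries UDP-glucuronic acid and UDP-N-acetylgalactosamine into the endoplasmic reticulum, where proteoglycan chains are begun, and Slc8a1 is the plasma membrane exchanger that trades sodium for calcium. On the log2(scaled reads + 1) scale used for testing, which shrinks the change of scarce genes, Slc35d1 fell 1.36-fold and Slc8a1 1.34-fold. They were also the only members whose calls held once a trend of the data on base composition, described below, was removed. Both transcripts are low in GC (44.8% and 40.2%), and the removal itself moved both further down. Slc35d1 went from -0.44 to -0.51 on the log2 scale and Slc8a1 from -0.42 to -0.57. Their RefSeq promoter windows (GRCm38.p6, around the annotated start) are printed here with that of Slc30a9, the more abundant of the zinc transporters that were called, to set the base composition at each start beside that of the transcript. The windows lie at chr4:103215127-103215426 on the minus strand, chr17:81738338-81738637 on the minus strand and chr5:67306705-67307004 on the plus strand. Capitals mark the GC box GGGCGG, a motif bound by Sp1, on either strand.
Slc35d1: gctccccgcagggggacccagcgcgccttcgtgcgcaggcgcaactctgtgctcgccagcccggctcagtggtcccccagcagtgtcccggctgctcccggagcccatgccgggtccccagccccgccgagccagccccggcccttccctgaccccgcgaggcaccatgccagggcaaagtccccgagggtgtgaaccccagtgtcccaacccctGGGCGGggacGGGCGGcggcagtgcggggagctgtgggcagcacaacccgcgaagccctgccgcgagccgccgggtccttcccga
Slc8a1: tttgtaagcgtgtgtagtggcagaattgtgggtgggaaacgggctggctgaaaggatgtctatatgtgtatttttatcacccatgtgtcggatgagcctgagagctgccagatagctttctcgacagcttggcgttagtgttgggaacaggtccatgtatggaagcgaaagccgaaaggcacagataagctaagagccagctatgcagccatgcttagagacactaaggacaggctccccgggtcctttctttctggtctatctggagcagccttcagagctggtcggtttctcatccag
Slc30a9: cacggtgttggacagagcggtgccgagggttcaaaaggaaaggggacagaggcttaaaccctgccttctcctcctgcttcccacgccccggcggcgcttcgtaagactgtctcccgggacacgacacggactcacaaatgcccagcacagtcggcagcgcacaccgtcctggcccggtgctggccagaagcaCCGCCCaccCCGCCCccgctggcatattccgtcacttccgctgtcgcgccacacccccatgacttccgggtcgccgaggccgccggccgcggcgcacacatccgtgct

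The Slc35d1 window was 75.3% GC with 29 CG pairs and 2 GC boxes, although the longest Slc35d1 transcript was 44.8% GC. Slc30a9 had the same kind of window, at 67.3% GC with 31 CG pairs and 2 GC boxes, against 44.4% GC in its transcript. In contrast, the Slc8a1 window was 50.7% GC with 9 CG pairs and no match to the GC box. The Slc8a1 window starts 88.7 kb beyond the gene's end in the deposited table, so the table's gene model did not reach this start. RefSeq windows were found for 118 of the 146 genes, 162 windows in all. A GC box lay in 63.6% of these, in 64.7% of the 10460 windows of all genes tested and in 35.7% of the 32851 windows of all RefSeq genes. TATAAA lay in 6.17%, 6.42% and 13.6%. Both shares of the members were near those of all genes tested. A match describes letters in the window and says nothing of use of the site.

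In level per kb of transcript, the lens carried a few very abundant amino acid and phosphate transporters and a long tail of scarce ones. Slc3a2 was highest of all. It encodes the heavy chain that brings several amino acid exchangers to the cell surface. It had 85.8 and 86.6 scaled reads per kb in the Tdrd7 null libraries and 94.6 and 87.5 in the control libraries. Next came its light chain Slc7a5, an exchanger of large neutral amino acids, at a mean of 57.8 over the 4 libraries, the cationic amino acid transporter Slc7a2 at 56.7, the phosphate transporter Slc20a2 at 50.1 and the light chain Slc7a8 at 47.2. Slc7a2 stood above Slc7a5 in both Tdrd7 null libraries (59.5 and 56.9, against 54.2 and 51.4) and below it in both control libraries (55.5 and 54.7, against 67.3 and 58.2). This order depends on the transcript lengths used. In scaled reads Slc7a2 was above Slc7a5 in all 4 libraries, and Slc7a2 was not called. The amino acid transporters Slc38a2 and Slc38a3 stood at 29.96 and 17.95, the potassium-dependent sodium-calcium exchanger Slc24a4 at 21.7, Slc35b1, which exchanges ATP for ADP across the endoplasmic reticulum, at 18.1, and the zinc importer Slc39a1 at 15.8. These 10 genes held 51.8% of the summed level per kb of all members. Over the members the median was 1.62 scaled reads per kb, against 3.33 over all genes in the table.

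**Figure D1:**
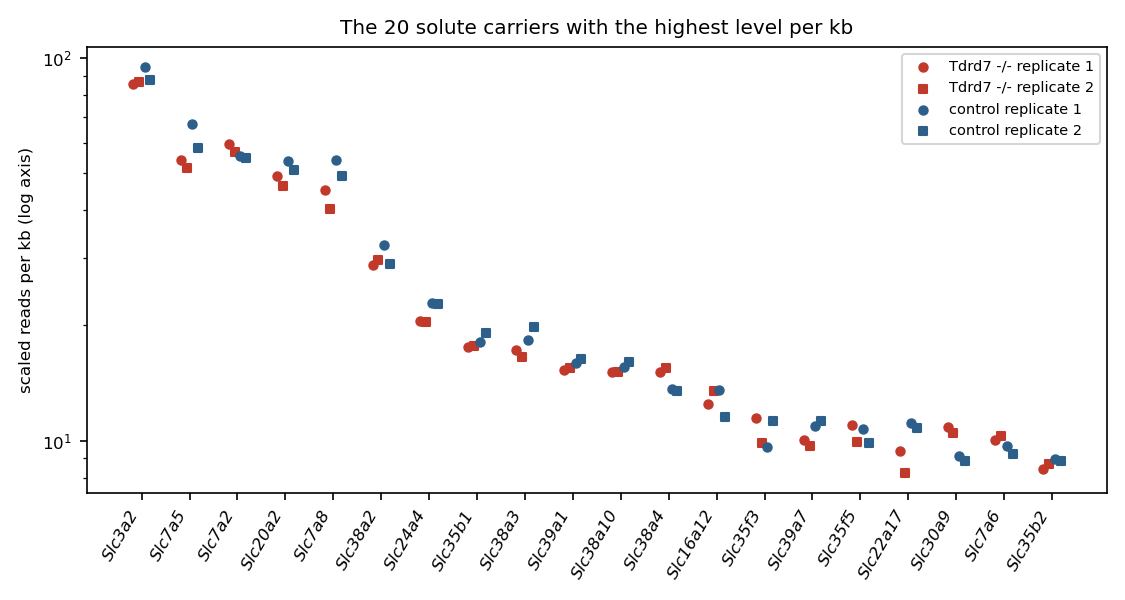
Scaled reads per kb of longest transcript (log axis) for the 20 solute carriers with the highest mean, with 1 point per library (red Tdrd7 null, blue control; circles replicate 1, squares replicate 2). Slc3a2 is highest in all 4 libraries, and for most genes the points of both genotypes lie close together.

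Most solute carriers did not differ detectably between the genotypes. The 145 members that averaged 1 scaled read or more were tested with limma on log2(scaled reads + 1), with p-values adjusted over all tested genes. Of these, 4 were called higher and 13 lower in Tdrd7 null lenses at an adjusted p under 0.05. Over all 10696 tested genes 10.1% were called higher and 7.88% lower (18% together), against 2.76% and 8.97% of the members. The share called higher was below that of all genes, the share called lower was near it, and the share called in either direction was 11.7%. On the log2(scaled reads + 1) scale no called member reached 1.5-fold, as 61 genes did over the whole table, but the pseudocount shrinks the change of scarce genes. With a pseudocount of 0.1 the scarce Slc13a4 stood at 0.72 on the log2 scale, in place of 0.43, which is past 1.5-fold. With a pseudocount of 5, which shrinks scarce genes further, it stood at 0.16, Slc2a9 at -0.19, Slc29a3 at -0.19, Slc24a3 at -0.23, Slc8a1 at -0.27 and Slc27a1 at -0.22, all still called. An unadjusted p under 0.05 was reached by 41 members, or 28.3%, against 33.1% of all genes. Together the members took 0.299% and 0.320% of scaled reads in the Tdrd7 null libraries and 0.333% and 0.313% in the control libraries, with groups that overlapped. In scaled reads, not divided by the library total, they summed to 3113 and 3054 in the Tdrd7 null libraries. The sums in the control libraries were 3301 and 3170, so that the groups were separate. Whether the summed level differs thus depends on the unit.

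Small differences leaned downwards. The groups did not overlap for 28 members that were higher and 63 that were lower in Tdrd7 null lenses, or 19.3% and 43.4% of the members, where 30.2% and 31.3% of all genes were so placed. The median log2 fold change of the members was -0.07, against -0.01 over all genes. Its median size was 0.11, against 0.13 over all genes. Between single libraries the members' median difference was 0.08 for the Tdrd7 null replicates and 0.09 for the control replicates. The fold change compares means of 2 libraries, which vary less than single libraries, so these sizes are not like measures. With the trend on base composition removed, the members' median was -0.03 and that of all genes 0.00.

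**Figure D2:**
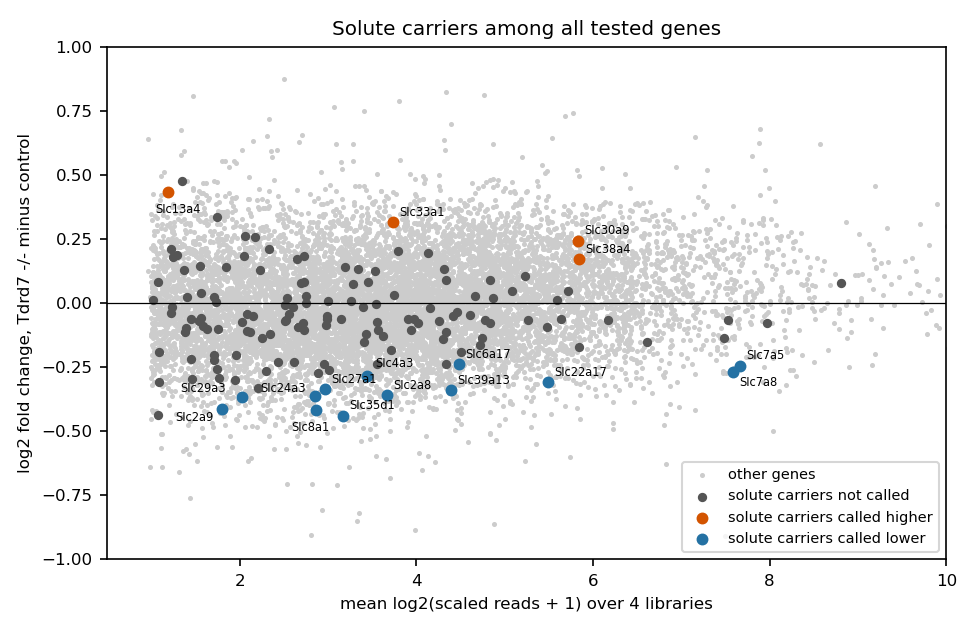
Log2 fold change (Tdrd7 null minus control) against mean log2(scaled reads + 1) for solute carriers (dark grey not called, orange called higher, blue called lower) over all other tested genes (light grey). The axes are cropped, so genes outside them, Tdrd7 among them, are not drawn, and all called solute carriers lie between -0.44 and 0.43.

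The base composition of the transcripts moved with these differences. The 4 members called higher had a median GC content of 44.5% and the 13 called lower one of 55.9%, against 51.1% over all members. This split was not particular to solute carriers. Over the whole table the genes called higher had a median of 42.6% and those called lower 56.8%, against 49.6% over all genes. Of the members under 45% GC (n = 34) the median log2 fold change was 0.08, and of those at 55% or more (n = 38) it was -0.11. Over the 145 members, which share the same 4 libraries and are not independent, fold change and transcript GC had a Pearson's r of -0.431 and a Spearman's rho of -0.474, given as a description. After the trends of each library on GC and length were taken out, 0 members were called higher and 2 lower by limma (22, or 15.2%, at an unadjusted p under 0.05, against 18.9% of all genes), where 2.06% and 1.24% of all genes were called (3.29% together). All 17 called members kept their sign, and Slc35d1 and Slc8a1 kept their calls. Pearson's r of fold change and GC over the members was then 0.18. The removal, fitted over all genes, thus turned the members' own relation to GC and lowered members of low GC. All 17 calls were lost when limma's prior took no account of intensity (38 members, or 26.2%, at an unadjusted p under 0.05, against 30.2% of all genes) and when control replicate 1 was left out (23, or 15.9%, at an unadjusted p under 0.05, against 24% of all genes), where 0.15% and 4.03% of all genes were called. Without control replicate 2 a total of 3 calls were kept, and without Tdrd7 null replicates 1 and 2 there were 12 and 5, where 4.84%, 20.5% and 8.52% of all genes were called. For the settings described at the close, the share of all genes called was 17.9% with a pseudocount of 0.1, 18.1% with one of 5, 17.7% with no filter, 24.8% with a minimum mean of 5 and 18.1% with TMM scaling. It was 19% without crystallins in the total, 20.1% with a robust prior, 19.8% with a replicate block, 5.47% with the block and the GC trend removed and 28.4% with a crossed block.

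**Figure D3:**
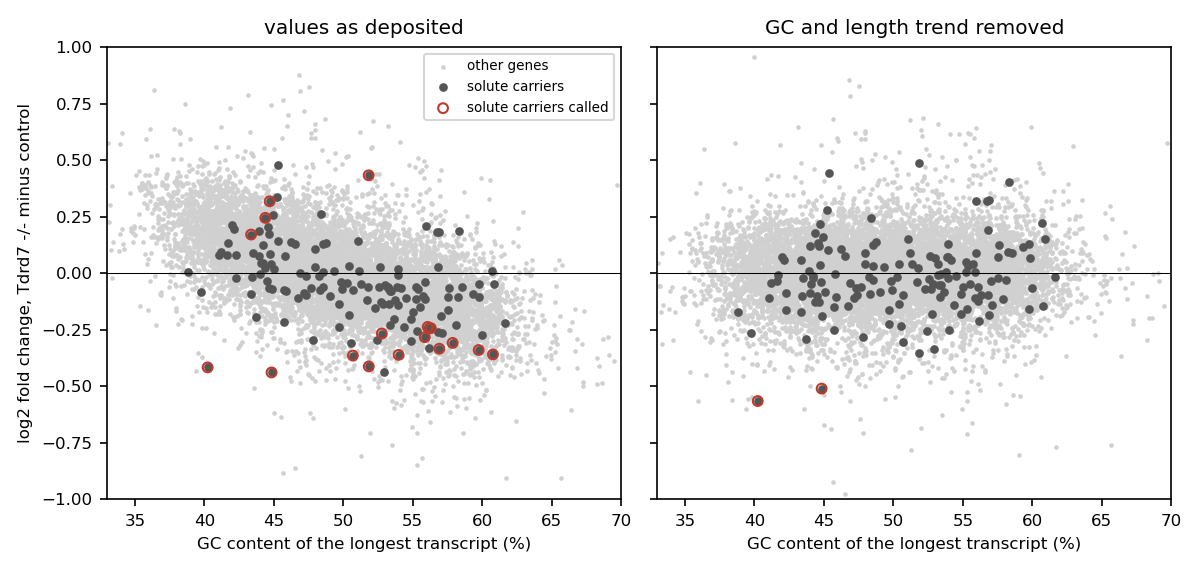
Log2 fold change (Tdrd7 null minus control) against the GC content of the longest transcript, for the deposited values on the left and with the library trends on GC and length taken out on the right, cropped to 1 log2 unit either way. Dark points are solute carriers and red rings those called, 17 on the left and Slc8a1 and Slc35d1, both AT-rich and low, on the right.

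The Slc35 family holds the nucleotide sugar transporters, which bring the building blocks of glycans into the endoplasmic reticulum and Golgi. The class took every Slc35 gene by family number, so not all its members need carry nucleotide sugars, as Slc35b1 above shows. Of 22 members 0 rose and 1 fell by limma (5 at an unadjusted p under 0.05, median log2 fold change -0.06). For this class and those below, the shares over all tested genes were 10.1% called higher and 7.88% called lower. An unadjusted limma p under 0.05 was reached by 33.1% of all genes, or by 18.9% with the GC trend removed. Whether any class differs from these shares was not tested. The one that fell was Slc35d1. It had 6.25 and 7.18 scaled reads in Tdrd7 null replicates 1 and 2, against 9.43 and 9.46 in the control replicates. The means were 6.72 ± 0.657 in Tdrd7 null lenses and 9.45 ± 0.0209 in controls (SD, n = 2 each). Both Tdrd7 null libraries lay well below both control libraries, which were nearly equal. The difference was -0.44 on the log2 scale (SE 0.0909, limma adjusted p = 0.00716), and -0.51 (SE 0.0876, limma adjusted p = 0.00891) with the GC trend removed. Without control replicates 1 and 2 in turn the limma adjusted p was 0.0651 and 0.0647, at -0.44 both times.

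Slc35d1 lies on chromosome 4 from 103170649 to 103215164 (GRCm38), 57.1 Mb from Tdrd7. It was the only one of 9 members on that chromosome that was called. The nearest, the choline transporter Slc44a1, lies 7.41 Mb from Tdrd7 and had a log2 fold change of 0.13 (limma adjusted p = 0.302). Among the other Slc35 genes Slc35a2, the UDP-galactose transporter, had 10.3 and 9.38 scaled reads in Tdrd7 null lenses and 11.4 and 12.1 in controls, and did not pass (-0.24, SE 0.0826, limma adjusted p = 0.0625). The abundant Slc35b1 stood at -0.08, Slc35e3 at -0.24 and Slc35f1 at 0.20, and none of them passed.

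Ion exchangers and cotransporters set calcium, chloride, pH and volume in the lens. Of 22 tested members 0 rose and 3 fell by limma (8 at an unadjusted p under 0.05), with a median log2 fold change of -0.12. Over all tested genes 7.88% were called lower and 33.1% had an unadjusted p under 0.05. All 3 that fell exchange sodium for calcium or chloride for bicarbonate. Slc8a1 had 5.24 and 5.35 scaled reads in the Tdrd7 null libraries, against 7.91 and 6.93 in the control libraries. The Tdrd7 null values were nearly equal and below both controls, of which replicate 1 was the higher. On the log2 scale the difference was -0.42 (SE 0.0961, limma adjusted p = 0.012), and -0.57 (SE 0.0924, limma adjusted p = 0.0071) after removal of the GC trend. That removal took Slc8a1 as a transcript of 18464 nt at 40.2% GC, and the second value depends on this choice. Leaving out control replicate 1 gave -0.33, which missed the threshold (limma adjusted p = 0.131). Slc8a1 lies on chromosome 17 from 81388691 to 81649607, and 296 nt of its exons overlap an antisense gene on the other strand, whose reads cannot be told apart in an unstranded library.

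Among the other sodium-calcium exchangers Slc24a3 alone passed. Slc24a3, which also moves potassium, had 5.64 and 5.10 scaled reads in Tdrd7 null lenses, against 7.14 and 7.21 in controls (log2 fold change -0.36, SE 0.0936, limma adjusted p = 0.02). Once the GC trend was removed it stood at -0.25 and did not pass (limma adjusted p = 0.154). The scarce Slc8a3 had 0.745 and 0.873 against 1.69 and 1.23 in controls and missed the threshold at -0.44 (SE 0.146, limma adjusted p = 0.0542). Slc8a3 passed the filter on the mean only through its control values, so its direction is not independent of that filter. Slc24a4, by far the most abundant of the family, had 91.96 and 91.2 scaled reads in Tdrd7 null lenses and 102 and 102 in controls, a log2 fold change of -0.15 that did not pass (SE 0.0514, limma adjusted p = 0.0549). Slc24a2 and Slc24a6 both stood at 0.18 without passing, and were named after their values were seen.

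Slc4a3 was the only tested member of the Slc4, Slc12 and Slc26 families, which carry bicarbonate, chloride and sulfate, to pass. The others ranged in log2 fold change from -0.31 for Slc4a8 to 0.19 for Slc12a5, both named after their values were seen. Slc4a8 passed the filter on the mean only through its controls (mean 1.37, against 0.920 in Tdrd7 null lenses). The anion exchanger Slc4a3 fell, with 8.78 and 8.95 scaled reads in Tdrd7 null lenses against 11.2 and 10.8 in controls (log2 fold change -0.28, SE 0.08, limma adjusted p = 0.0283), and did not pass once the GC trend was removed (-0.11, limma adjusted p = 0.482). The sodium bicarbonate cotransporter Slc4a4 had 15.3 and 14.2 in Tdrd7 null lenses and 14.6 and 16.8 in controls. The sodium-potassium-chloride cotransporter Slc12a2, which loads cells with chloride, had 32.7 and 34.4 in Tdrd7 null lenses and 33.7 and 31.2 in controls. Groups overlapped for both genes, at log2 fold changes of -0.08 (SE 0.082) and 0.05 (SE 0.064).

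Amino acid transporters were the most abundant class, with 31 members that summed to 1740 and 1706 scaled reads in Tdrd7 null lenses and 1856 and 1745 in controls. By limma 1 rose and 3 fell (median log2 fold change -0.06), and none passed with the GC trend removed (5 at an unadjusted p under 0.05). The light chains Slc7a8 and Slc7a5 fell while their shared heavy chain Slc3a2 did not pass. Slc7a8 had 185 and 165 scaled reads in Tdrd7 null lenses, against 221 and 200 in controls (log2 fold change -0.27, SE 0.0652, limma adjusted p = 0.0154). Slc7a5 had 191 and 181, against 237 and 205 in controls (-0.24, SE 0.0661, limma adjusted p = 0.0242). For Slc3a2 the values were 241 and 244 in Tdrd7 null lenses and 266 and 246 in controls (-0.08, SE 0.0548, limma adjusted p = 0.348).

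The groups of all 3 were separate, but the Slc3a2 controls differed from each other by more than their lower value differed from the Tdrd7 null libraries. With the GC trend removed Slc7a8 stood at -0.18 (SE 0.0583, limma adjusted p = 0.116) and Slc7a5 at -0.10 (limma adjusted p = 0.422). Whether the light chains differed from the heavy chain in their response was not tested. Slc6a17, a vesicular transporter of neutral amino acids, also fell, at 20.4 and 18.7 scaled reads in Tdrd7 null lenses against 24.8 and 21.7 in controls (-0.24, limma adjusted p = 0.0499), and stood at -0.06 with the GC trend removed.

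The sodium-coupled transporter Slc38a4 was the amino acid carrier that rose, with 59.3 and 60.7 scaled reads in Tdrd7 null lenses against 53.5 and 52.9 in controls. Its replicates agree closely, and the difference was 0.17 on the log2 scale (SE 0.0546, limma adjusted p = 0.0469), or 0.06 once the GC trend was removed (limma adjusted p = 0.569). The cationic carrier Slc7a2, the most abundant member in scaled reads, had 470 and 450 in Tdrd7 null lenses and 439 and 433 in controls and did not pass (0.08, limma adjusted p = 0.343). The neutral amino acid carriers Slc38a2 and Slc38a3 stood at -0.07 and -0.17 and did not pass. Slc6a6 imports taurine, an osmolyte and antioxidant of the lens, and had 45.8 and 49.6 in Tdrd7 null lenses and 46.4 and 48.2 in controls, with overlapping groups (0.01, SE 0.0606). Slc1a5, a glutamine transporter, was scarce at 3.41 and 3.44 in Tdrd7 null lenses and 2.68 and 3.12 in controls, and did not pass (0.18, limma adjusted p = 0.282). The glutamate transporter Slc1a2 had the largest log2 fold change of any member, 0.48, and did not pass (limma adjusted p = 0.13). Tdrd7 null replicate 2 stood apart at 2.96 scaled reads, with 1.28 in Tdrd7 null replicate 1 and 0.941 and 1.40 in controls, and the groups overlapped. Slc1a2 was named after its values were seen.

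**Figure D4:**
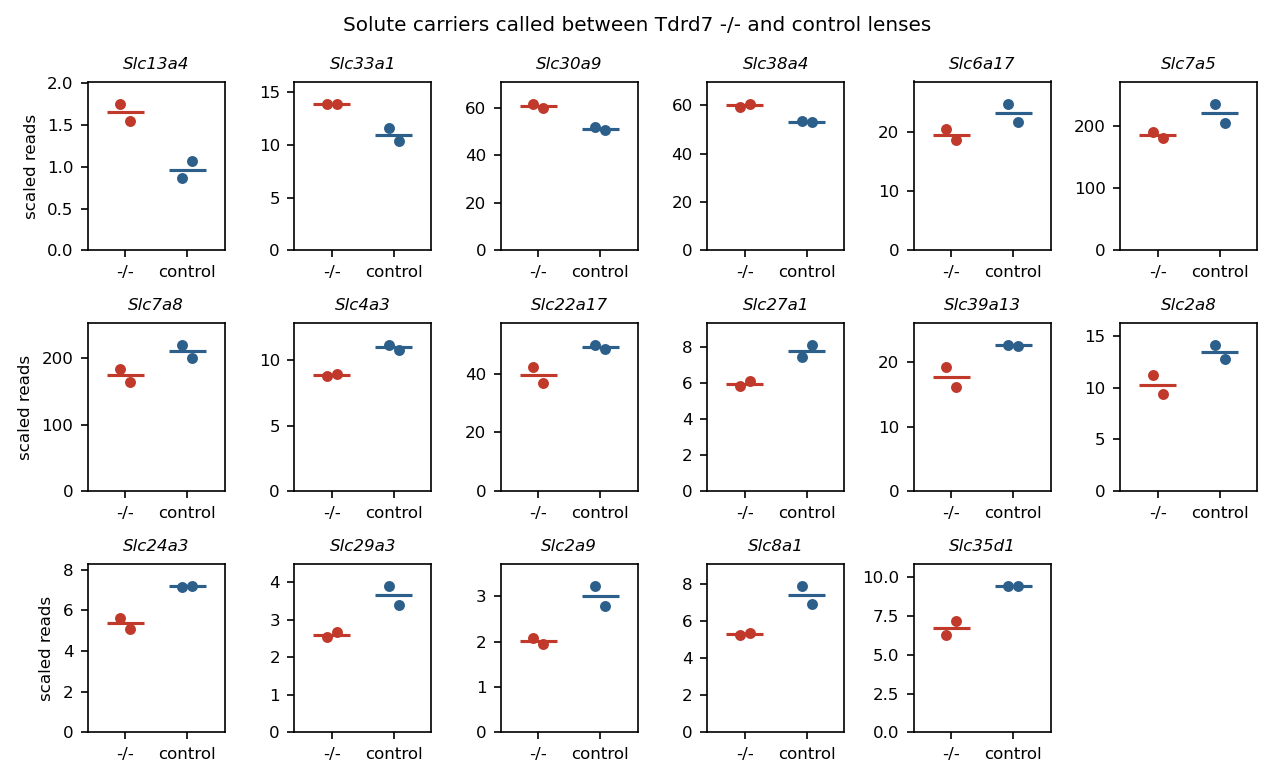
Scaled reads per library of the 17 called solute carriers, ordered from the largest rise to the largest fall, with red points for the 2 Tdrd7 null libraries on the left, blue points for the 2 control libraries on the right and a line at each mean. In every panel the groups are separate, and Slc35d1 and Slc8a1 are at the end.

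Zinc and other metal transporters held 23 members, of which 1 rose and 1 fell by limma (median log2 fold change -0.07). Once the GC trend was removed 0 passed (4 at an unadjusted p under 0.05). Slc30a9, a zinc transporter linked to mitochondria, rose. It had 61.8 and 59.9 scaled reads in Tdrd7 null lenses, against 51.9 and 50.5 in controls, and in each group the replicates lay close together. This was 0.24 on the log2 scale (SE 0.0554, limma adjusted p = 0.0113), and 0.18 (SE 0.0508, limma adjusted p = 0.0797) with the GC trend removed. Slc39a13, which releases zinc from vesicles and the Golgi, fell, with 19.2 and 16.2 against 22.7 and 22.5 in controls (-0.34, SE 0.0804, limma adjusted p = 0.0136), and stood at -0.16 without the trend. It shares 215 nt of exon with Psmc3 on the other strand. The zinc importer Slc39a1 stood at -0.07, and the magnesium carriers Slc41a2 and Slc41a3 at 0.34 and -0.33, and none of these passed.

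Of 10 members of the families for sugars, inositol and sodium-coupled solutes 0 rose and 2 fell by limma (3 at an unadjusted p under 0.05, median log2 fold change -0.09, or -0.05 with the GC trend removed). Slc2a9, a urate transporter of the glucose transporter family, had 2.07 and 1.94 scaled reads in Tdrd7 null lenses, against 3.23 and 2.79 in controls (-0.41, SE 0.119, limma adjusted p = 0.0315). Slc2a8, an intracellular glucose transporter, had 11.2 and 9.38 against 14.1 and 12.7 in controls (-0.36, SE 0.0921, limma adjusted p = 0.0191). Its transcript was 60.8% GC, and without the GC trend it stood at -0.15. Slc2a9 then stood at -0.35 (SE 0.118, limma adjusted p = 0.125), so that most of its size was left though its call was lost. Slc5a6, a carrier of biotin and pantothenate, and Slc37a4, which brings glucose 6-phosphate into the endoplasmic reticulum, did not pass at -0.30 and -0.15.

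Of 7 carriers of lipids, choline and acetyl-CoA 1 rose and 1 fell by limma, with a median log2 fold change of -0.01. Slc33a1, which brings acetyl-CoA into the endoplasmic reticulum, rose, with 13.9 and 13.9 scaled reads in Tdrd7 null lenses against 11.6 and 10.4 in controls (0.32, SE 0.0794, limma adjusted p = 0.0174). It overlaps 1136 nt of an antisense gene and stood at 0.22 without the GC trend (limma adjusted p = 0.141). Slc27a1, a fatty acid transporter, fell, with 5.80 and 6.08 against 7.41 and 8.11 in controls (-0.33, SE 0.0918, limma adjusted p = 0.0252), or -0.19 without the trend. Of 4 carriers of phosphate, sulfate and vesicular anions 1 rose and 0 fell (2 at an unadjusted p under 0.05). Slc13a4, a sodium sulfate cotransporter, had 1.76 and 1.55 scaled reads in Tdrd7 null lenses against 0.868 and 1.06 in controls. Its control mean was 0.966, so it passed the filter on the mean only through the Tdrd7 null libraries, and its direction is not independent of that filter. The difference of 0.43 on the log2 scale (SE 0.136, limma adjusted p = 0.0436) is understated by the pseudocount at so low a level. It became 0.49 without the GC trend and then missed the threshold (SE 0.135, limma adjusted p = 0.0681). The other 3 members of the class did not pass, among them the abundant Slc20a2 at 175 and 165 in Tdrd7 null lenses and 192 and 182 in controls (-0.14, SE 0.0551, limma adjusted p = 0.101).

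Of 10 carriers of vitamins and nucleosides 0 rose and 1 fell by limma (4 at an unadjusted p under 0.05, median log2 fold change -0.11). Slc29a3, a nucleoside transporter of lysosomes, fell, with 2.53 and 2.67 scaled reads in Tdrd7 null lenses against 3.91 and 3.38 in controls (-0.37, SE 0.114, limma adjusted p = 0.0422), and stood at -0.30 without the GC trend (limma adjusted p = 0.162). Slc23a2, the sodium-dependent transporter of ascorbate, an antioxidant concentrated in the eye, had 7.502 and 6.59 in Tdrd7 null lenses and 7.53 and 6.505 in controls, with a log2 fold change of 0.01 (SE 0.0998). The thiamine transporter Slc19a3 stood at 0.26, the heme transporter Slc48a1 at -0.24 and the folate transporter Slc46a1 at -0.26, and none of them passed.

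Slc22a17, a receptor for lipocalin 2 that belongs to the organic cation family by sequence, fell in a class of 8 where 0 rose and 1 fell. It had 42.1 and 36.97 scaled reads in Tdrd7 null lenses, against 49.9 and 48.4 in controls (-0.31, SE 0.0671, limma adjusted p = 0.00913). With the GC trend removed it stood at -0.12 (limma adjusted p = 0.313), and its transcript was 57.9% GC. Of the 4 Slc16 members 0 passed limma, and 0 had even an unadjusted p under 0.05. Slc16a12, the cataract gene, was much the most abundant of them, with 50.4 and 54.5 in Tdrd7 null lenses and 55.1 and 46.7 in controls (0.05, SE 0.0745), and its groups overlapped. The 4 genes that carry an Slc name but are no carriers, the scaffolds Slc9a3r1 and Slc9a3r2 and the genes Slc4a1ap and Slc7a6os, did not pass either, at log2 fold changes from -0.22 to 0.08.

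**Figure D5:**
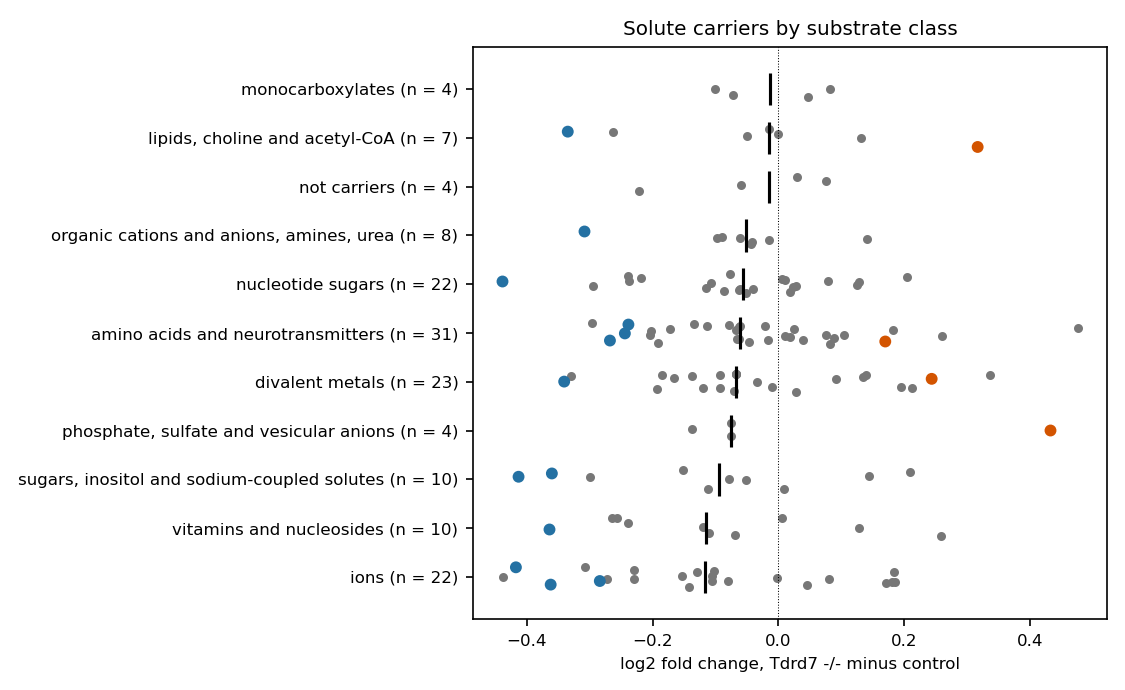
Log2 fold change (Tdrd7 null minus control) of each tested solute carrier by substrate class, with called genes in orange (higher) and blue (lower), other genes in grey and a black bar at the class median. Class medians lie between -0.12 and -0.01, and called genes are spread over most classes.

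Genes that anchor, power or regulate these carriers were measured for 19 of 33 listed, and 3 rose and 1 fell (median log2 fold change 0.06). Over all tested genes 10.1% were called higher and 7.88% lower, and whether the partners differ from these shares was not tested. Stk39, a kinase that activates sodium-coupled chloride cotransporters, had 91.4 and 101 scaled reads in Tdrd7 null lenses against 78.2 and 76.1 in controls (0.31, SE 0.0595, limma adjusted p = 0.00482), and 0.32 without the GC trend (limma adjusted p = 0.00974). Wnk2, a kinase of the family that acts on Stk39, fell, with 13.1 and 11.5 against 20.8 and 19.1 in controls (-0.65, SE 0.0811, limma adjusted p = 0.000632), or -0.37 without the trend (limma adjusted p = 0.0202). Both calls held with the trend removed. Wnk1 and Oxsr1, the other listed kinases that were measured, stood at 0.08 and -0.003 (limma adjusted p = 0.399 and 0.986). They did not pass in either fit. Slc12a2, a cotransporter that these kinases regulate, did not pass in either fit, and RNA levels do not measure the activity of the kinases or of the cotransporter. Emb and Nptn, partners that carry Slc16 proteins to the membrane, rose by 0.20 and 0.21 and did not pass without the trend (0.09 and 0.03).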

How the data were processed

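Polyadenylated RNA of 4 lens pools was sequenced from both ends for 75 nt with a TruSeq RNA version 2 kit, which does not mark strand, per the series' design text. Trimmomatic, TopHat2 2.0.9, Cufflinks and Cuffnorm with mm10 (GRCm38) are named in the submitters' processing notes, and which tool counted and scaled the reads is not stated there. The deposited signal values were whole multiples of 1 step per library to within 0.001, and none was corrected for length. They were analysed as log2(value + 1) for genes with a mean of at least 1. The genotypes were compared over all genes with limma 3.58.1 in R 4.3.3 (intensity trend, two-sided, Benjamini-Hochberg, called at an adjusted p under 0.05), and the fit was checked on simulated counts. The number of reads limits precision of scarce genes. The p-values rest only in part on the spread between 2 pools per genotype, with 2 residual degrees of freedom for each gene. By its prior, with 11.1 degrees of freedom, limma drew this spread towards that of genes of similar level. Transcript length and GC content came from the longest GENCODE M21 transcript, and each library's trend on both was removed with natural splines (5 degrees of freedom each) as an alternative. Both gene ends in the table equalled those of GENCODE M21 for 91 of the 146 members, so length and GC are less certain for the rest. Other alternatives were pseudocounts, filters, scalings, priors, a replicate block and leaving out libraries.

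Members, classes and lists were chosen with earlier results of these data known. Named genes were the called members with separate groups (at most 12 each way), the 10 highest per kb, a list of lens carriers and up to 4 per class by smallest p. Of the members, 35 share at least 100 nt of exon with another gene and are uncertain to that extent, 3 of them on the same strand. The 1 member under the filter is not reported here.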

Additional observations from a re-analysis of the deposited data

How the results depend on the processing

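Among members, 4 were called higher and 13 lower, and 1920 genes were called in all. Scaling to the total without crystallins gave 2 higher and 22 lower (766 higher and 1262 lower over all genes, against 1077 and 843), with a median over all genes of -0.04 in place of -0.01 and a log2 ratio of the members' summed level of -0.11 in place of -0.07. Without the intensity trend 0 and 0 members and 16 genes were called, and with the GC and length trend removed 0 and 2 members and 351 genes. Leaving out 1 library gave 0 to 3 members higher, 0 to 18 lower and 431 to 2196 genes. With the replicate block 4 members rose and 16 fell (2117 genes), and with the block and the GC and length trend removed 0 and 4 (583 genes). The numbers share no stated source, and deviations of same-numbered libraries had a Pearson r of -0.15 across genes. A crossed pairing chosen after seeing the data gave 8, 24 and 3036. Pseudocounts, filters, TMM scaling and the robust prior left each count within 1.5 times. The planned tests on recovered reads (edgeR's and DESeq2's models) were not run. All 17 called members kept their sign in every setting run, the filter at a mean of 5 having tested 14 of them. The groups of all 17 were separate, so most of these settings could not have turned a sign. This holds for leaving out 1 library and for the pseudocounts, filters, priors and replicate blocks. Only the scalings and the removal of the GC and length trend could have done so.

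Signs that turned all belonged to members that were not called, which with 1 library left out could not have been otherwise. With the GC and length trend removed, with or without the replicate block, Slc12a2 stood at -0.022, Slc16a12 at -0.048, Slc16a13 at 0.033, Slc16a4 at -0.11, Slc44a1 at -0.0072, Slc7a6os at -0.0048 and Slc9a3r1 at 0.088. Scaled to the total without crystallins, Slc23a2 stood at -0.029, Slc4a1ap at -0.0080 and Slc6a6 at -0.029. With 1 library left out, the ranges were -0.0091 to 0.10 for Slc12a2, -0.070 to 0.16 for Slc16a12, -0.16 to 0.018 for Slc16a13, -0.23 to 0.023 for Slc16a6, -0.20 to 0.048 for Slc17a5, -0.22 to 0.025 for Slc22a15, -0.086 to 0.098 for Slc23a2, -0.15 to 0.013 for Slc38a2, -0.055 to 0.11 for Slc4a1ap, -0.17 to 0.016 for Slc4a4, -0.046 to 0.067 for Slc6a6, -0.15 to 0.028 for Slc9a3r1 and -0.44 to 0.0025 for Slc9a3r2. The cause was not tested.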

Other observations

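The 7 members of the zinc transporter family Slc30, most of which move zinc out of the cytosol, summed to 157 and 163 scaled reads in Tdrd7 null lenses and to 153 and 145 in controls. Without Slc30a9, the only one called, the other 6 summed to 94.9 and 103 in Tdrd7 null lenses and to 101 and 94.2 in controls, and the groups overlapped. The 9 members of Slc39, which move zinc into the cytosol, summed to 164 and 163 in Tdrd7 null lenses and to 176 and 174 in controls, and Slc39a13 alone was called. These sums come from values that still hold the GC trend. Once it was removed, neither Slc30a9 nor Slc39a13 passed (limma adjusted p = 0.0797 and 0.265). The families were singled out after their values were seen, and the difference between them was not tested.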
